A study of Canis lupus familiaris with 12 samples.

Results

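Livers of senior and young adult beagles that ate the same animal protein-based diet (APB) were compared, 1 array for each of 3 senior and 3 young adult dogs. These 6 arrays are all those of APB-fed dogs among the 12 of the study, and all probe sets apart from the array's own controls were considered. The other 6 dogs ate a plant protein-based diet (PPB) and enter only through the shared estimate of the spread and for values given side by side. The age comparison asks how hepatic transcript levels differ late in life when the diet is held constant.

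All dogs were female. Senior dogs averaged 11.1 years when feeding began and were 12 years old when tissue was taken, and young adult dogs began at 8 weeks and were 1 year old. Feeding lasted 12 months, and food was withheld for 12 hours before sampling. The APB diet took its protein mainly from chicken by-product meal, with rice and poultry fat as other main ingredients, and held 28% protein, 23% fat and 5% fiber, against 26%, 11% and 15% in the PPB diet. Senior dogs received a limited amount that held their body weight, whereas young dogs ate freely and grew. The dogs of the 2 ages also came from different suppliers. Age, feeding regime, growth and supplier changed together and cannot be told apart.

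The liver makes most plasma proteins, stores and releases glucose, builds cholesterol and bile acids, and clears drugs and ammonia. Hepatocytes do most of this work, and resident macrophages (Kupffer cells), stellate cells, bile duct cells and the sinusoidal endothelium make up the rest of the organ. With age the mammalian liver is known for slower drug clearance, more inflammatory activity and more stored lipid.

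Values are log2 intensities of probe sets, so a difference of 1 is a 2-fold difference. Levels are compared between dogs within a probe set and, apart from a rough check of the tissue, not between genes. The label of the tissue was borne out by hepatocyte transcripts. Albumin (ALB) lay between 15.07 and 15.15 and the thyroxine carrier transthyretin (TTR) between 14.42 and 14.76 in the 6 dogs. The median over 9 measured hepatocyte markers lay between 13.43 and 14.25. The median over 3 markers of pancreas and kidney was 2.97 to 3.40. Because a piece of liver holds many cell types, fewer cells of a type and less RNA per cell cannot be told apart in any value below.

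Young dogs 1 and 2 stood apart in how completely their transcripts were measured. The array carries probe sets at the 3' end and the 5' end of control transcripts, and the gap between them widens when RNA is shortened or copied incompletely. Averaged over beta-actin, GAPDH, glucose-6-phosphate dehydrogenase and the ethanol-oxidising cytochrome P450 2E1 (CYP2E1), the gap was 9.21 and 8.80 in young dogs 1 and 2 but 4.37 in young dog 3. In senior dogs 1, 2 and 3 it was 4.97, 7.03 and 3.53. The group means were 5.18 ± 1.76 (SD, n = 3) in senior and 7.46 ± 2.68 (SD, n = 3) in young dogs. The groups overlapped, and the difference of -2.28 gave p = 0.3 in a 2-sided exact permutation test, which cannot go below 0.1 with 3 dogs against 3.

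CYP2E1 shows what the gap means for a single transcript. Its 3' probe set read 14.62, 14.65 and 14.79 in the 3 young dogs and 14.43, 14.68 and 14.55 in the senior dogs, and so differed little. Its 5' probe set read 3.67 and 4.10 in young dogs 1 and 2 and 11.91 in young dog 3, against 10.54, 8.16 and 12.14 in the senior dogs. The same RNA species therefore looked equal or far lower in 2 young dogs depending on the end that was read. GAPDH behaved alike at its 5' end, with 5.01 and 4.89 in young dogs 1 and 2, 11.43 in young dog 3, and 11.41, 8.09 and 12.69 in senior dogs. Its 3' end was lower in those dogs too, at 11.76 and 11.56 against 13.34 in young dog 3 and 13.44, 13.08 and 13.75 in senior dogs. An adrenergic receptor control read 2.27 to 2.31 at its 3' end in all 6 dogs, with a gap of 0.416 to 0.423. Its readings at both ends lie at the low end of the scale, below the level required for testing. A transcript that is not detected cannot show whether a gap widened, so nothing is drawn from this control.

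**Figure D1:**
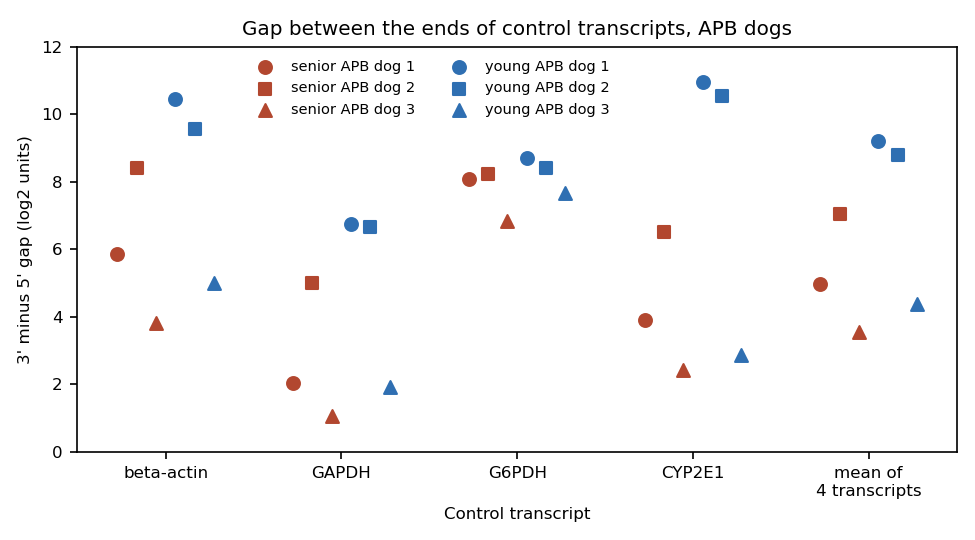
The 3' minus 5' gap in log2 units (vertical axis) of 4 control transcripts and of their mean (horizontal axis) for each of the 6 APB dogs, red for senior and blue for young. Young dogs 1 and 2, at 9.21 and 8.80 for the mean, lie above the others, and senior dog 2 at 7.03 comes next.

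The genes themselves show the same split. Of 1517 genes with more than 1 tested probe set, the distance between the brightest pair of probe sets left its usual value by more than 1 log2 unit in 31.7% and 34.5% of genes in young dogs 1 and 2. In young dog 3 this was 3.16%, and in senior dogs 1, 2 and 3 it was 4.09%, 13.7% and 4.09%. Young dogs 1 and 2 both lay more than 2-fold below the other 4 dogs for 399 of 13755 probe sets and more than 2-fold above them for 54. The main results below are therefore also given without young dogs 1 and 2. Leaving them out leaves young dog 3 alone, whose spread is then taken from the other groups. Some differences are also given within the 3 dogs with narrow gaps, under 5 (senior dogs 1 and 3 and young dog 3), and within the 3 with wide gaps, over 7 (senior dog 2 and young dogs 1 and 2).

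A probe set was called at a limma adjusted p under 0.1 and a difference over 2-fold. Of 13755 probe sets, 2 were called, which is 0.0145%. Both fell with age, neither has a gene name in the annotation used, and 509 probe sets lay higher and 808 lower in senior dogs when p was left unadjusted and had to be under 0.05. Probe set 1589612_s_at read 3.57, 4.15 and 3.75 in senior dogs and 7.67, 7.27 and 7.22 in young dogs. No senior dog came within 3 units of a young dog, and the 3 young dogs were alike despite their gaps. The difference was -3.56 (standard error 0.21, limma adjusted p = 0.000309), and -3.40 without young dogs 1 and 2. Probe set 1598351_at read 4.69, 4.71 and 4.73 in senior dogs and 6.17, 6.51 and 6.09 in young dogs. Its difference was -1.55 (standard error 0.16, limma adjusted p = 0.0193), and -1.38 without young dogs 1 and 2. With PPB the senior dogs read 3.66, 3.73 and 3.73 and the young dogs 5.91, 5.91 and 5.29 for the first, a smaller difference of -1.99. For the second the difference with PPB was -0.22, with senior dogs at 4.74, 4.72 and 4.63 and young dogs at 4.74, 5.27 and 4.76. The age differences of the 2 diets did not differ at an adjusted p under 0.1 (limma adjusted p = 0.808 for both).

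The call of the second probe set was lost without senior dog 1 (limma adjusted p = 0.173) or senior dog 3 (0.122), with the gap as a covariate (0.121) and with only the 6 APB arrays fitted (0.189), and its adjusted p reached 0.235 over all alternatives. The first stayed called in each of them, with an adjusted p of at most 0.0515. In the order of the fits named, the difference of the second probe set was -1.53, -1.56, -1.54 and -1.55, so its size hardly moved. The number of calls itself moved with single dogs, from 1 without senior dog 1 or senior dog 3 to 854 without young dog 3, when only the 2 young livers with wide gaps remain. It was 24 without young dogs 1 and 2.

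No named gene passed, so the genes below are described by their levels. They are the 12 per direction with the largest difference among those with an unadjusted p under 0.005 and no overlap between senior and young dogs. That choice fixes the sign of their differences in any subset of these 6 dogs and favours a large size there, so values without single dogs describe these genes and are no independent check.

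WFDC2, a secreted protein with whey acidic protein domains known as the epithelial marker HE4, had the largest difference of these 24 genes. It read 10.63, 10.98 and 10.22 in senior dogs and 3.82, 3.99 and 3.80 in young dogs. The senior livers were all high and the young livers all low, whatever their gap. Because the young values lie near the low end of the scale, the size of the difference is poorly resolved. The means were 10.61 ± 0.38 (SD, n = 3) and 3.87 ± 0.10 (SD, n = 3), a difference of 6.74 (standard error 0.91, limma adjusted p = 0.146). The difference was 6.81 without young dogs 1 and 2, 6.63 within the dogs with narrow gaps and 7.07 within those with wide gaps. With PPB it was 4.46, with senior dogs spread over 6.25, 10.84 and 8.20 and young dogs at 4.53, 3.77 and 3.62. That wide spread enters the shared error: with only the 6 APB arrays fitted the limma adjusted p of WFDC2 was 0.00396, and over its alternatives it ran from 0.00239 to 0.518. A second, dimmer probe set of WFDC2 read 3.57, 4.14 and 4.30 in senior dogs and 3.54, 3.43 and 3.05 in young dogs, a difference of 0.67.

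LOC607080, a protein-coding locus with no function name in the annotation, came next. Senior dogs read 9.28, 9.32 and 8.88, and young dogs 6.83, 3.35 and 3.33. Young dog 1 lay between the groups and the rest were far apart. Young dogs 2 and 3 read close to the low end of the scale, where the size of a difference is poorly resolved. The difference was 4.65 (standard error 0.80, limma adjusted p = 0.146), 5.75 within narrow-gap dogs, 4.23 within wide-gap dogs and 6.01 with PPB. The difference with PPB has the size that the study tabled for MUSTN1 on that diet, but the annotation used does not join these names. GPM6A, a membrane glycoprotein that is also a marker of mesothelial cells, had 2 probe sets that agree in direction. The first read 7.31, 6.82 and 7.67 in senior dogs and 3.66, 3.41 and 5.35 in young dogs (difference 3.13, standard error 0.50, limma adjusted p = 0.146). The second read 6.93, 7.72 and 7.35 against 5.15, 5.28 and 5.06, a difference of 2.17. Without young dogs 1 and 2 these became 1.92 and 2.27, and with PPB they were 3.06 and 2.76. The other mesothelial markers measured, PKHD1L1 and TNNT1, differed by -0.04 and -0.05. Both lay near the low end of the scale in every APB dog, where a difference is poorly resolved. Their values therefore cannot show whether mesothelial transcripts differed with age.

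LOC476006 lies next to the glutathione transferase gene GSTP1, with 0 protein-coding genes between them, but has no function name of its own in the annotation. Its brighter probe sets gave differences of 2.14, 2.00 and 2.09, and the dimmest gave -0.14. The first read 11.67, 11.51 and 11.57 in senior dogs and 10.27, 9.76 and 8.30 in young dogs. Here young dogs 1 and 2 lay nearer to the senior dogs than young dog 3 did, so the difference grew to 3.28 without them. With PPB it was 3.66. The fold of this probe set with APB was 4.41, which is the value that the study tabled for GSTP1 on this diet. The study therefore appears to have reported this signal as GSTP1. GBGT1, which adds the last sugar of the Forssman glycolipid, read 6.76, 6.91 and 7.002 in senior dogs and 4.29, 5.45 and 5.41 in young dogs. All 3 senior dogs were more than 1 unit above every young dog. The difference was 1.84 (standard error 0.28, limma adjusted p = 0.146), 1.48 without young dogs 1 and 2 and 2.17 with PPB.

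ANXA2, an annexin that binds phospholipid at the plasma membrane, read 7.61, 5.39 and 6.81 in senior dogs and 3.72, 3.61 and 3.58 in young dogs. The difference of 2.97 was 3.03 without young dogs 1 and 2. Further probe sets of ANXA2 gave 2.42 and 0.27. FADS3, a member of the fatty acid desaturase family, read 6.43, 4.73 and 5.49 in senior dogs and 3.55, 2.64 and 3.58 in young dogs, a difference of 2.30 that was 1.97 without young dogs 1 and 2. For these genes young dog 3 was as low as the other young dogs, or nearly so. Young values of ANXA2 and FADS3 lie close to the low end of the scale, so the size of their differences is poorly resolved.

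A second set of high genes leaned on young dogs 1 and 2. CES2, a carboxylesterase that hydrolyses ester drugs, read 10.79, 10.00 and 10.91 in senior dogs but 7.78, 8.21 and 9.85 in young dogs. Young dog 3 was close to senior dog 2, and the difference went from 1.95 to 0.72 without young dogs 1 and 2. The cell adhesion protein CD99 went from 1.66 to 0.60, ABCD4, which helps vitamin B12 out of lysosomes, from 1.65 to 0.87, TM6SF1, a lysosomal membrane protein, from 1.94 to 1.09 and the ribosomal protein gene RPL6 from 1.82 to 0.95. Of the 12 genes, 8 stayed over 2-fold higher without these dogs. RPL6 also shows how probe sets can differ, since its other tested probe sets gave 0.71, 0.65 and -0.56, the last from the brightest of them.

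**Figure D2:**
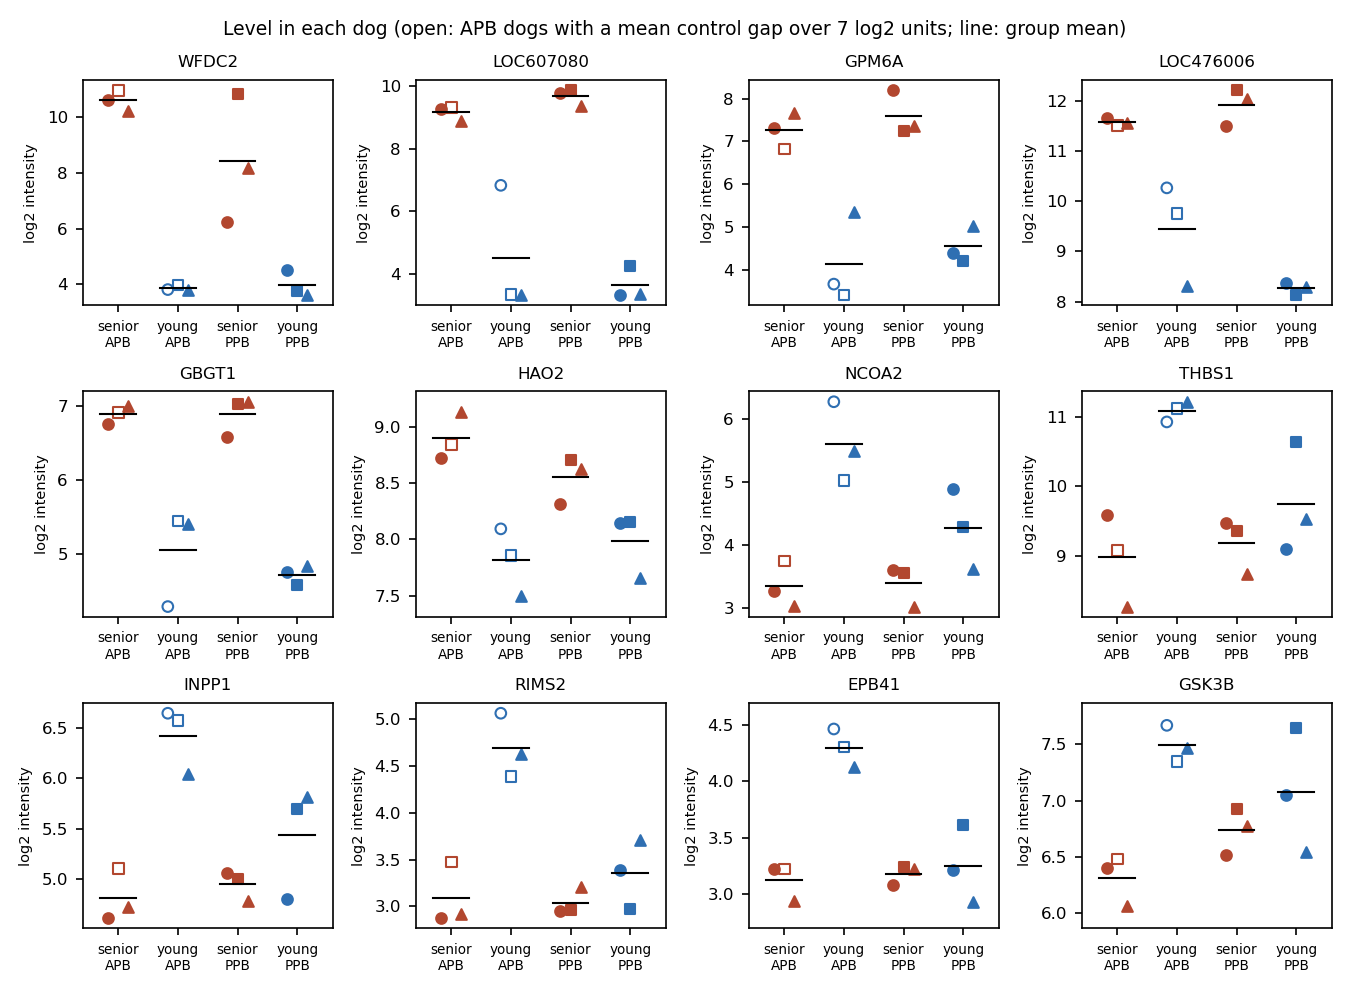
Log2 intensity (vertical axes) of 12 genes in each dog by age and diet (horizontal axes), circles, squares and triangles for dogs 1, 2 and 3, open symbols for APB dogs with a mean control gap over 7 and lines for group means. WFDC2 runs from 10.22 to 10.98 in senior and from 3.80 to 3.99 in young APB dogs, and LOC476006 is lowest of the 6 APB dogs in young dog 3 at 8.30.

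The genes that lay lower in senior dogs came from many processes. NCOA2, a coactivator of nuclear receptors, read 3.27, 3.75 and 3.04 in senior dogs and 6.28, 5.03 and 5.49 in young dogs. A second probe set read 5.83, 6.02 and 5.51 against 8.38, 7.13 and 7.93. Both probe sets separated the ages in all 6 dogs. The differences were -2.25 (standard error 0.39, limma adjusted p = 0.146) and -2.03, and both were -2.14 without young dogs 1 and 2. With PPB they were -0.87 and -1.58. THBS1, thrombospondin 1, a matrix glycoprotein that activates latent TGF-beta, read 9.59, 9.08 and 8.27 in senior dogs and 10.92, 11.11 and 11.21 in young dogs. The 3 young dogs were within 0.3 of each other despite their gaps. The difference was -2.10 (standard error 0.43, limma adjusted p = 0.246), -2.23 without young dogs 1 and 2 and -0.56 with PPB.

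FST, follistatin, which binds and blocks activins, read 4.46, 3.35 and 4.60 in senior dogs and 7.01, 6.83 and 5.86 in young dogs, a difference of -2.43 that was -1.72 without young dogs 1 and 2. Its other probe sets gave -0.62 and -0.40, in the same direction but smaller. INPP1, a phosphatase that breaks down inositol polyphosphates, read 4.61, 5.10 and 4.72 against 6.65, 6.57 and 6.04. The difference was -1.61 (standard error 0.28, limma adjusted p = 0.146) and -1.23 without young dogs 1 and 2. RIMS2, a vesicle exocytosis protein, read 2.88, 3.47 and 2.92 against 5.06, 4.38 and 4.62, a difference of -1.60 (standard error 0.24, limma adjusted p = 0.146) and of -1.53 without them. The senior values of RIMS2 lie close to the low end of the scale, where a difference is poorly resolved. So do those of the dimmer NCOA2 probe set.

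The remaining genes of this set had differences of -2.34 for FRY, a microtubule-binding protein, -2.19 for LGALS8, a galectin, -2.17 for LOC479911, -2.08 for ATP8A1, a phospholipid flippase, -1.86 for GOLIM4, a Golgi membrane protein, -1.69 for SLC15A2, a peptide transporter, and -1.67 for DLC1. Without young dogs 1 and 2, LOC479911 shrank most, to -0.87, while LGALS8 grew to -3.27 and ATP8A1 to -2.56. The brighter probe set of ATP8A1 gave -1.0001 and shrank to -0.31, and a dimmer probe set of LOC479911 gave 0.80. Brighter probe sets of LGALS8 gave -0.31 and 0.05, and those of GOLIM4 0.09 and 0.09. The differences of LGALS8 and GOLIM4 therefore rest on their dimmest tested probe sets. DLC1 had 2 probe sets of the same direction, at -1.67 and -0.96. Senior values of SLC15A2, at 3.23, 2.75 and 3.25, lie close to the low end of the scale. So do those of LGALS8, at 3.85, 2.65 and 3.90, and of the dimmer ATP8A1 probe set, at 3.46, 4.18 and 3.46. The size of these differences is poorly resolved. Of the 12 lower genes, 11 stayed over 2-fold lower without young dogs 1 and 2.

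**Figure D3:**
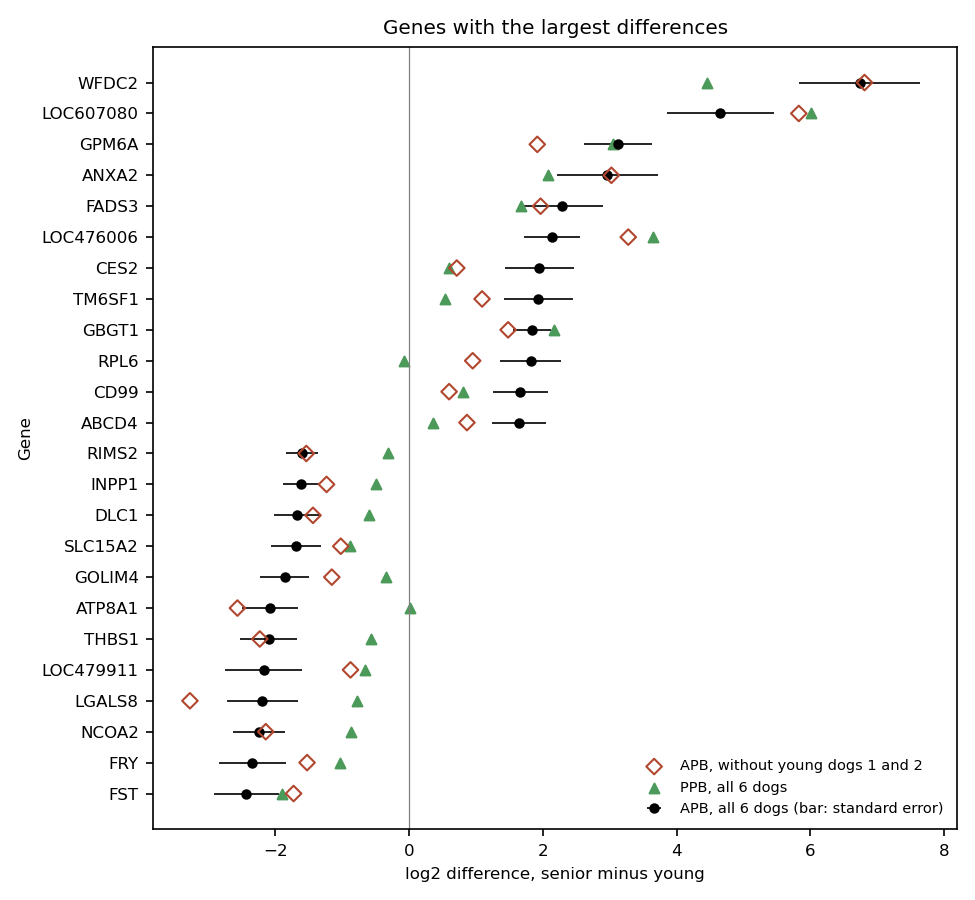
The log2 difference of senior minus young dogs (horizontal axis) for the 24 genes with the largest differences (vertical axis), for all APB dogs with the standard error, without young APB dogs 1 and 2, and for PPB dogs. WFDC2 stays at 6.81 without these dogs, whereas CES2 goes from 1.95 to 0.72.

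Other genes that the study listed as age-related with APB were also measured, but the study chose them on these same dogs, so their counts are not independent evidence. By the brightest probe set of each gene, 12 of 15 listed as higher had an unadjusted p under 0.05 in that direction, and 16 of 21 listed as lower. Over all 5008 genes the shares were 4.29% higher and 4.73% lower. The median difference was 1.66 for the higher list and 0.87 without young dogs 1 and 2, and -1.18 and -0.998 for the lower list. HAO2, a peroxisomal hydroxy acid oxidase, read 8.72, 8.84 and 9.13 in senior dogs and 8.09, 7.85 and 7.49 in young dogs, a difference of 1.08 (standard error 0.20, limma adjusted p = 0.185) that was 1.41 without young dogs 1 and 2. DAO, D-amino acid oxidase, read 6.42, 6.98 and 7.51 against 5.09, 5.39 and 6.18, and its difference of 1.42 was 0.78 without them. LGALS2, a galectin, went from 1.05 to 0.44 and SYPL1, a vesicle membrane protein, from 1.08 to 0.79. A dim probe set of each pointed the other way, at -0.15 for LGALS2 and -0.37 for SYPL1.

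On the lower side EPB41, a protein of the membrane skeleton, read 3.22, 3.22 and 2.94 in senior dogs and 4.47, 4.31 and 4.13 in young dogs. The difference was -1.17 (standard error 0.17, limma adjusted p = 0.146) and -0.998 without young dogs 1 and 2. GSK3B, a kinase that restrains glycogen synthase, read 6.40, 6.48 and 6.06 against 7.67, 7.35 and 7.46, a difference of -1.18 that was -1.15 without them. The endosomal adaptor APPL2 differed by -1.26, the chromatin protein EPC1 by -1.29, the receptor LIFR by -1.26, the junction protein CXADR by -1.43, the locus LOC611215 by -1.59, the protease NRDC by -1.09, DIP2B by -1.13 and SPATS2 by -1.09. Without young dogs 1 and 2 these 8 differences ran from -0.71 for LIFR to -2.19 for LOC611215. Senior values of EPB41 and of APPL2, the latter at 2.16, 2.44 and 2.23, lie at the low end of the scale, so these differences are poorly resolved.

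Probe sets of a gene did not always agree. Of the 1517 genes with more than 1 tested probe set, the brightest pair differed in sign in 653, or 43%. TERF2IP, a telomere-binding protein, read 6.63, 5.57 and 6.12 in senior dogs and 4.23, 4.57 and 5.17 in young dogs on one probe set (difference 1.45). On its brighter probe set it read 9.20, 9.36 and 8.57 against 9.58, 9.78 and 9.09 (difference -0.44), so no direction can be given for the gene. NPC1, which moves cholesterol out of lysosomes, gave -1.04 on its brighter probe set and 0.57 on the dimmer, and without young dogs 1 and 2 these were -0.99 and -0.71. LIFR gave 0.78 and CXADR 0.81 and 1.29 on their other probe sets. On brighter probe sets LGALS8 gave -0.31 and 0.05, and GOLIM4 0.09 and 0.09.

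Whether age differences depended on the diet was tested as the interaction of age and diet. In limma 0 of 13755 probe sets (0.0%) were called, and 499 had an interaction p under 0.05 before adjustment. Nearly all genes above had the same sign on both diets, 11 of the 12 higher and 11 of the 12 lower. Over all 5008 genes the age differences of the 2 diets correlated at 0.37 (Pearson). The shares of all genes with the same sign, or over 2-fold with PPB, were not counted. The counts given here therefore describe the chosen genes only. Of the higher genes, LOC607080, LOC476006 and GBGT1 differed more with PPB and the other 9 less, and 7 of 12 exceeded 2-fold there. Only 2 of the 12 lower genes did so with PPB, FST at -1.90 and FRY at -1.02, among the probe sets of smallest p. ATP8A1 was at 0.02 with PPB against -2.08 with APB, with PPB senior dogs at 4.86, 4.36 and 4.87 and PPB young dogs at 5.44, 4.86 and 3.73. EPB41 was at -0.07 with PPB against -1.17. These genes were chosen for their difference with APB, which by itself favours a larger difference there, and control gaps in PPB dogs were 2.32 to 4.93.

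Gene groups were described by the brightest probe set of each of 5008 named genes. Over all of them the median difference was -0.03, and 0.03 without young dogs 1 and 2. Senior dogs lay entirely above young dogs for 3.85% of genes and entirely below for 6.05%. None of the 39 pathway and cell type lists with 5 or more measured genes held a called gene. Their medians ran from -0.45 to 0.59, and 30 lay within 0.3 of 0. In 10 the sign of the median changed without young dogs 1 and 2.

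**Figure D4:**
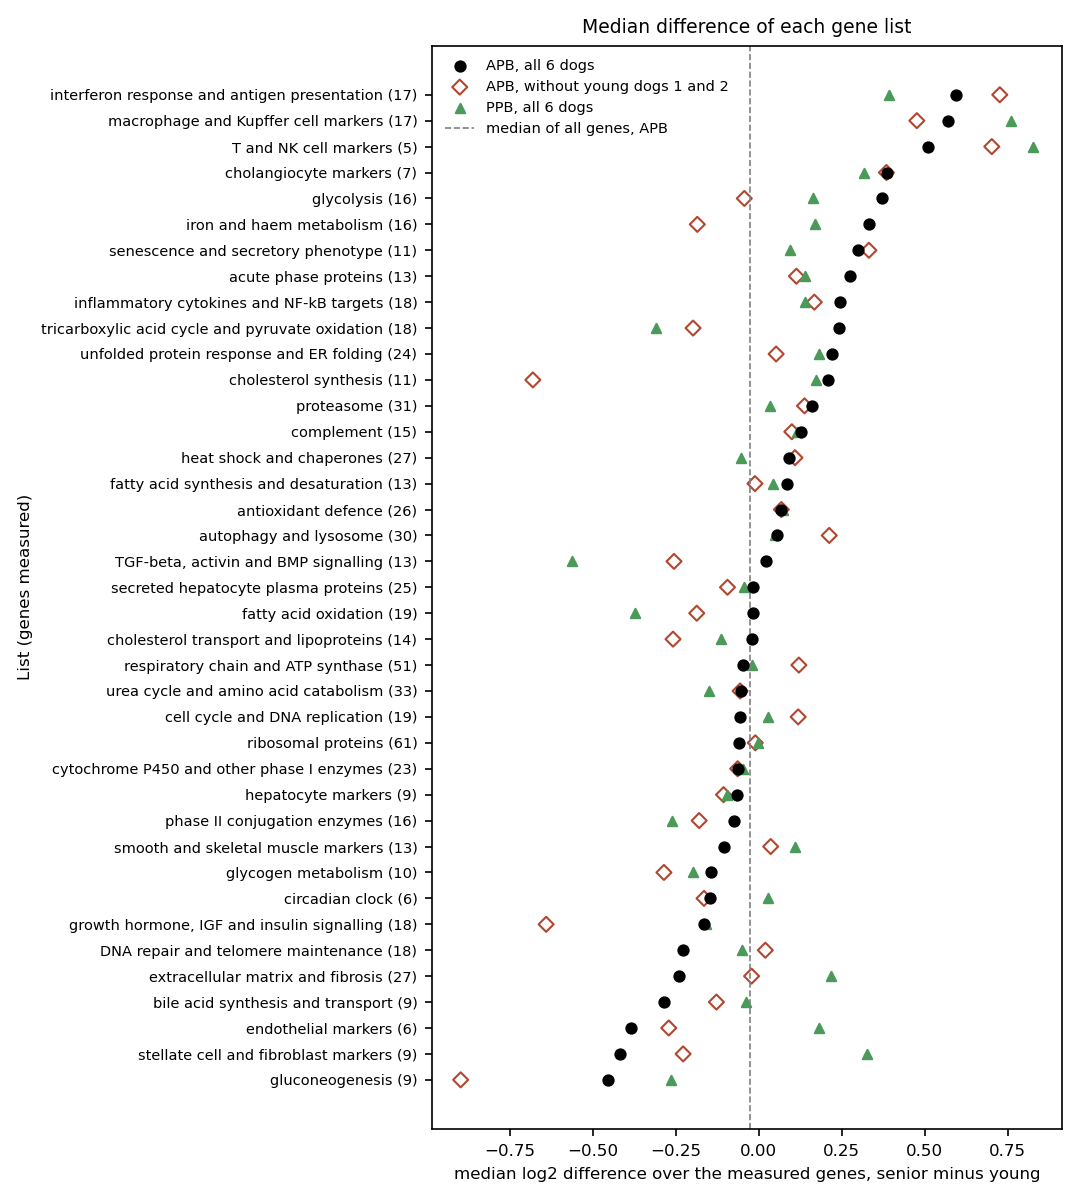
The median log2 difference of senior minus young dogs (horizontal axis) of 39 gene lists (vertical axis, with the number of genes measured), for all APB dogs, without young APB dogs 1 and 2, and for PPB dogs. Interferon and antigen presentation genes lie highest at 0.59 and gluconeogenesis lowest at -0.45, and cholesterol synthesis goes from 0.21 to -0.68 without young dogs 1 and 2.

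Glucose use was followed by the genes of glycolysis. Of 16 glycolysis genes, 13 lay above 0 with a median of 0.37. In that direction 2 had an unadjusted p under 0.05, against 4.29% of all genes. Yet the median was -0.04 without young dogs 1 and 2. GAPDH read 13.08, 11.15 and 13.83 in senior dogs and 6.29, 7.18 and 13.03 in young dogs, so its difference of 3.85 was -0.34 without them. The muscle-type enolase ENO3 went from 2.00 to 0.49. PFKP, a phosphofructokinase, went the other way at -0.71, and at -1.62 without young dogs 1 and 2, against 2.09 with PPB. Its interaction of age and diet had an unadjusted limma p of 0.00537, and no probe set was called for the interaction. The study tabled PFKP as higher with age on PPB only. Of the glycogen genes, the targeting phosphatase subunit PPP1R3C went from 3.11 to 0.34. The brightest probe set of PGM1, which links glucose 1-phosphate and glucose 6-phosphate, went from -0.70 to -0.19. Other probe sets of PGM1 gave 1.37 and -0.84, so no direction can be given for it.

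Gluconeogenesis had a median of -0.45 over 9 genes, and -0.90 without young dogs 1 and 2, with 3 genes above 0. None of the 9 was lower at an unadjusted p under 0.05, and 1, the malate dehydrogenase MDH1 at 0.51, was higher. Over all genes these shares were 4.73% and 4.29%. PCK1, the first committed enzyme of gluconeogenesis, read 12.89, 13.15 and 12.91 in senior dogs and 13.89, 13.87 and 14.25 in young dogs. Every senior dog was lower, the 3 young dogs were alike, and the difference was -1.02 (standard error 0.69, limma adjusted p = 0.643) and -1.27 without young dogs 1 and 2. With PPB it was -1.74. G6PC1, which frees glucose in the last step, differed by -0.56 with APB (-0.90 without young dogs 1 and 2, and 0.58 on a dimmer probe set) and -0.82 with PPB, and FBP1 by -0.45 and -0.21. The median of this list was -0.12 without senior dog 1 and -0.13 without senior dog 2.

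Cholesterol synthesis turned with the choice of dogs. Over 11 genes the median was 0.21 with all dogs, -0.68 without young dogs 1 and 2, and -0.25 without young dog 2 alone. FDFT1, squalene synthase, read 9.07, 9.40 and 9.98 in senior dogs and 7.91, 6.79 and 11.07 in young dogs, so that young dog 3 was the highest of the 6 and young dog 2 the lowest. Young dog 3 was the highest for 6 of the 11 genes and young dog 2 the lowest for 9, against 12.2% and 15.6% of all genes. FDPS went from 2.63 to -1.17, SQLE from 0.62 to -0.59 and HMGCS1 from -0.59 to -2.05 without young dogs 1 and 2. The lipoprotein gene APOM, a carrier of sphingosine 1-phosphate, read 11.85, 13.05 and 12.15 against 13.45, 13.42 and 12.87, a difference of -0.90 that was -0.52 without them.

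Secreted plasma proteins split in the same way. PLG, plasminogen, read 10.35, 6.47 and 11.18 in senior dogs and 2.96, 3.15 and 10.35 in young dogs, and the complement component C5 read 8.71, 5.82 and 8.88 against 2.74, 2.84 and 7.88. Young dogs 1 and 2 were lowest and senior dog 2 next, as in their control gaps, and whether the gaps account for these levels was not tested. The differences of 3.85 and 3.32 became -1.02 and -0.07 without young dogs 1 and 2. On their brightest probe sets ALB gave -0.03, TTR -0.11 and the central complement protein C3, at 15.55, 15.51 and 15.32 against 15.49, 15.45 and 15.50, gave -0.02. The other 5 probe sets of C3 gave 1.28 to 4.54 with all dogs and -1.37 to -0.21 without young dogs 1 and 2. Over 25 plasma protein genes the median was -0.02 and over 15 complement genes 0.13. C9, part of the complement pore, was 2.00 higher and stayed 0.94 higher without young dogs 1 and 2, and VTN, vitronectin, went from 1.06 to -0.24.

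**Figure D5:**
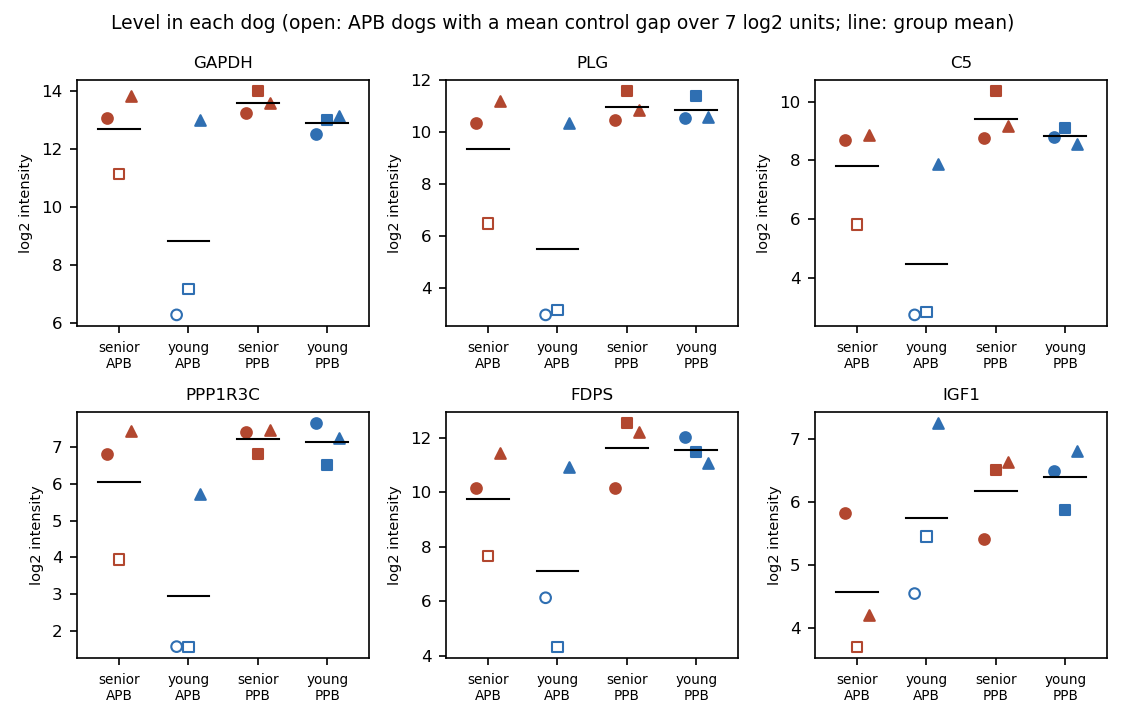
Log2 intensity (vertical axes) of 6 genes in each dog by age and diet (horizontal axes), with symbols and lines as in the plot of 12 genes by dog. PLG reads 2.96 and 3.15 in young APB dogs 1 and 2 against 10.35 in young APB dog 3, and IGF1 is highest in young APB dog 3 at 7.24.

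Drug-metabolising genes gave small differences as a group. The median was -0.06 over 23 cytochrome P450 and other phase I genes, with an unadjusted p under 0.05 for 1 higher and 3 lower genes (4.29% and 4.73% of all genes), and -0.07 over 16 conjugation genes. CYP4A37, a fatty acid hydroxylase, read 9.43, 9.66 and 7.43 in senior dogs and 10.76, 11.45 and 10.83 in young dogs. The difference was -2.17 (standard error 0.89, limma adjusted p = 0.497), and -1.99 without young dogs 1 and 2. A dimmer probe set of CYP4A37 gave only -0.23, with the ages overlapping, and -0.09 without these dogs. CYP3A26 read 12.64, 12.56 and 12.30 against 13.28, 13.29 and 12.92 on one probe set (difference -0.66) and 7.70, 5.74 and 8.83 against 3.84, 3.85 and 8.06 on a dimmer one (difference 2.17, and -0.64 without young dogs 1 and 2). CYP2J2 differed by -0.58, CYP1A2 by -0.28 and CYP3A12 by -0.09. UGT1A6, which joins glucuronic acid to phenols, read 13.03, 12.75 and 13.28 against 13.74, 13.66 and 13.84. It lay lower in every senior dog, by -0.73 with APB (-0.82 without young dogs 1 and 2) and by -1.001 with PPB.

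Of 26 antioxidant genes, 5 were higher at an unadjusted p under 0.05, against 4.29% of all genes, and 1 was lower. The median was 0.07. GSR, which regenerates glutathione, read 7.97, 7.98 and 9.69 in senior dogs and 7.40, 6.85 and 7.48 in young dogs, and SOD2, the mitochondrial superoxide dismutase, read 10.17, 9.22 and 10.09 against 8.75, 8.66 and 9.21. The groups did not overlap, though for SOD2 senior dog 2 and young dog 3 were nearly equal, and the differences of 1.30 and 0.96 were 1.06 and 0.62 without young dogs 1 and 2. GPX1, a glutathione peroxidase, went from 1.42 to 0.17 and PRDX1, a peroxiredoxin, from 0.57 to 0.19, and PRDX4 lay lower by -0.43. The cytosolic enzyme SOD1 gave -0.05. Catalase (CAT) gave -0.05 on its brightest probe set but 2.02 on another, which read 13.05, 12.73 and 13.32 against 9.66, 10.13 and 13.26 and gave -0.23 without young dogs 1 and 2. With PPB the differences of GSR and SOD2 were 0.07 and -0.15.

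Respiratory chain and ribosomal protein genes were near even as groups. Over 51 respiratory chain genes the median was -0.05, with an unadjusted p under 0.05 for 4 higher and 5 lower genes, against 4.29% and 4.73% of all genes. The complex I subunits NDUFS6, NDUFB11 and NDUFS3 differed by -0.87, -0.79 and -0.63, and by -0.43, -0.33 and -0.30 without young dogs 1 and 2, while NDUFC2 was 0.44 higher. Over 61 ribosomal protein genes the median was -0.06, with 33 below 0, and 8 were higher and 7 lower at that p. The brightest probe set of RPL6 was among the lower ones, at -0.56 and at -0.21 without young dogs 1 and 2. RPL12 read 12.73, 12.60 and 12.71 against 12.35, 12.10 and 12.39, a difference of 0.40 that was 0.29 without young dogs 1 and 2, whereas RPL17 went from 1.24 to 0.53 and RPS15 from 0.72 to 0.18. A dimmer probe set of RPL12 gave 0.14, with the ages overlapping. Among 33 genes of the urea cycle and amino acid breakdown the median was -0.05. PCCB, of propionate breakdown, was 0.40 higher, and KMO, of tryptophan breakdown, read 9.96, 9.70 and 10.86 against 11.21, 11.29 and 10.77 and lay lower by -0.91 with APB (-0.60 without young dogs 1 and 2) and -1.31 with PPB.

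The highest list medians were those of interferon response, macrophage and T and NK cell genes, and senior dog 1 stood out in them. Over 17 interferon response and antigen presentation genes the median was 0.59, with 15 above 0 and 0 at an unadjusted p under 0.05 in either direction. Senior dog 1 was the highest of the 6 dogs for 14 of the 17, against 18.2% of all genes. ISG15, a ubiquitin-like protein made on interferon exposure, read 12.13, 8.87 and 7.46 in senior dogs and 8.35, 9.22 and 8.42 in young dogs, and the antiviral GTPase MX1 read 10.81, 7.81 and 6.40 against 7.84, 7.60 and 7.60. Without senior dog 1 the median of the list was 0.06, ISG15 gave -0.50 and MX1 -0.57. Without young dogs 1 and 2 the median was 0.73, ISG15 gave 1.07 and MX1 0.74. TAP1, which loads peptides for antigen presentation, read 10.69, 9.16 and 7.77 against 7.95, 8.18 and 7.99. DLA-DQA1, a class II histocompatibility chain, was the list's only gene without overlap, at 8.10, 7.12 and 6.64 against 6.43, 5.97 and 6.35.

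For macrophage and Kupffer cell markers the same dog was high. Over 17 genes the median was 0.57 with 14 above 0, and 0.25 without senior dog 1, who was the highest for 14 of them. Without young dogs 1 and 2 it was 0.48, and with PPB 0.76. FCGR1A, a high-affinity antibody receptor, read 5.85, 3.76 and 4.20 in senior dogs and 3.74, 3.40 and 3.37 in young dogs. CD163, the haptoglobin-haemoglobin receptor, read 11.10, 9.41 and 9.92 against 9.63, 9.34 and 9.13, and the scavenger receptor MARCO 10.62, 8.89 and 9.37 against 8.83, 7.95 and 9.17. C1QA and C1QC, which Kupffer cells make, were 1.57 and 1.43 higher with all dogs and 0.19 and 0.51 higher without young dogs 1 and 2, and CD68 gave -0.12. The level of the whole list, as its median, was 8.87, 8.55 and 7.88 in senior and 8.71, 7.95 and 8.52 in young dogs, which overlap. Senior dog 1 was also the highest for 14 of 18 cytokine and NF-kB genes, 10 of 15 complement genes and 9 of 13 acute phase genes. Over all genes that share was 18.2%. SAA1, serum amyloid A, read 11.03, 7.25 and 6.80 against 6.55, 6.44 and 5.63. The 5 measured T and NK cell markers had a median of 0.51, which was 0.24 without senior dog 1. With single dogs left out it ran from 0.17 to 0.71, so another dog lowered it more.

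Of 9 stellate cell and fibroblast markers, 3 were lower at an unadjusted p under 0.05, against 4.73% of all genes, and the median was -0.42, with -0.23 without young dogs 1 and 2. With PPB it was 0.33. DCN, the collagen-binding proteoglycan decorin, read 7.52, 7.78 and 7.05 in senior dogs and 9.48, 9.13 and 8.52 in young dogs, a difference of -1.60 (standard error 0.57, limma adjusted p = 0.469) that was -1.07 without young dogs 1 and 2. On a dimmer probe set of DCN the ages overlapped, at 6.99, 6.31 and 6.35 against 6.47, 6.85 and 7.30, a difference of -0.32. ACTA2, smooth muscle actin, read 10.14, 10.49 and 9.76 against 11.58, 11.37 and 10.54, and MYH11, smooth muscle myosin, 5.64, 5.96 and 5.21 against 7.35, 6.82 and 6.82. Their differences of -1.03 and -1.39 were -0.41 and -1.22 without young dogs 1 and 2. Over all 13 smooth and skeletal muscle markers, however, the median was -0.10 with 5 above 0, and 0.04 without young dogs 1 and 2. COL1A1, of type I collagen, read 3.64, 3.83 and 3.70 against 4.05, 3.93 and 3.90. Without young dogs 1 and 2 a dimmer probe set of COL1A1 went from -1.51 to -0.10, and COL14A1 went from -1.09 to -0.32. The wider matrix list of 27 genes also holds THBS1. At an unadjusted p under 0.05 it had 3 lower and 0 higher genes, against 4.73% and 4.29% of all genes. Its median was -0.24, and -0.02 without young dogs 1 and 2.

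Of 6 measured endothelial markers, 2 were lower at an unadjusted p under 0.05, against 4.73% of all genes. The median of the 6 markers was -0.38, which was -0.27 without young dogs 1 and 2 and 0.18 with PPB. Their level per dog overlapped, at 4.74, 4.40 and 4.61 in senior and 5.52, 4.68 and 5.42 in young dogs. The brightest probe set of PECAM1, an adhesion molecule of endothelium, read 11.29, 11.68 and 9.79 in senior dogs and 12.04, 12.17 and 11.63 in young dogs, a difference of -1.02, while its other probe sets ran from -0.62 to 0.85. TEK, the angiopoietin receptor, differed by -0.87, and by -1.34 without young dogs 1 and 2. The 7 measured bile duct markers, which do not include the keratins KRT7 and KRT19, had a median of 0.39, and ANXA4, an annexin, read 8.37, 6.70 and 8.31 against 4.69, 4.29 and 6.56, a difference of 2.62 that was 1.24 without young dogs 1 and 2. EPCAM, the adhesion molecule that defines bile duct cells in the liver, was 0.39 higher, and 0.85 higher without them. Hepatocyte markers differed little, with a median of -0.06 over 9 genes. Whether the share of these cells differs between the ages was not tested.

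Growth signals were also measured. Over 18 genes of growth hormone, IGF and insulin signalling the median was -0.17, and -0.64 without young dogs 1 and 2. IGF1, the growth factor the liver releases under growth hormone, read 5.82, 3.69 and 4.20 in senior dogs and 4.54, 5.45 and 7.24 in young dogs. Young dog 3 was the highest, and the difference went from -1.18 to -2.67 without young dogs 1 and 2, against -0.21 with PPB. The growth hormone receptor GHR gave -0.11 and -0.70. IGFBP1, a fasting-induced binding protein, spread over 6.21, 5.62 and 12.04 in senior dogs and 13.54, 8.78 and 10.79 in young dogs. EIF4EBP1, a brake on translation, was 0.80 higher with APB (0.38 without young dogs 1 and 2) and 0.88 higher with PPB.

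Of 11 senescence genes, 2 were higher at an unadjusted p under 0.05, against 4.29% of all genes, with a median of 0.30 that was 0.33 without young dogs 1 and 2. It was 0.015 without senior dog 1, who was the highest of the 6 dogs for 9 of the 11, against 18.2% of all genes. CDKN1A, the cell cycle inhibitor p21, read 9.005, 8.08 and 7.17 in senior dogs and 7.23, 7.21 and 6.92 in young dogs. GLB1, the lysosomal beta-galactosidase whose activity marks senescent cells, read 7.95, 7.32 and 7.34 against 6.90, 6.24 and 6.598. The groups did not overlap for GLB1 and overlapped narrowly for CDKN1A. The difference of GLB1 was 0.96, and 0.94 without young dogs 1 and 2, and that of CDKN1A was 0.97 and 1.17. The lysosomal protease CTSK read 10.55, 9.39 and 9.003 against 8.30, 8.51 and 8.52, and was 1.21 higher with APB (1.13 without young dogs 1 and 2) and 1.29 higher with PPB. Cell cycle and DNA replication genes, 19 measured, had a median of -0.06. An unadjusted p under 0.05 was found for 1 lower and 0 higher genes, against 4.73% and 4.29% of all genes. That 1 was NUSAP1, a spindle protein, at 3.53, 3.46 and 2.29 against 3.94, 4.36 and 5.41, a difference of -1.47 that was -2.32 without young dogs 1 and 2.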

How the data were processed

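Liver RNA was hybridized to Affymetrix canine expression arrays, 1 array for each of 12 dogs. The deposited values are log2 intensities that the authors computed with GCRMA, a method that subtracts sequence-dependent background, applies quantile normalization and combines the probes of each set. The table holds 23913 probe sets, of which 77 are controls. Quantile normalization ties all levels to a common distribution, and probe sets that read far from the 3' end lose signal where RNA is short.

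Groups of 3 dogs (senior or young, APB or PPB) were taken from the sample labels. Of 23836 probe sets, the 13755 whose third-highest value over the 12 arrays was at least 2.85 were tested. The 4 group means were modelled in limma (version 3.58.1, R 4.3.3), the tool of the study, with empirical Bayes variances and Benjamini-Hochberg adjustment over all tested probe sets. A probe set was called at an adjusted p under 0.1 and over 2-fold. The gap of control transcripts was tested by exact permutation. Symbols came from the platform annotation (10549 probe sets with 1 symbol, 138 with several and 13149 with none, 10046 matched to RefSeq by gene number). The 7320 tested probe sets with 1 symbol stand for 5008 genes, and the probe set of highest mean over all arrays stood for a gene in lists. Named genes were every called probe set, up to 12 genes per direction with the largest difference among those with an unadjusted p under 0.005 and no overlap, up to 4 members of smallest p and the core members of a list described, and the genes of the study's tables. For the genes with the largest difference and those of the study's tables the probe set of smallest p is shown. The comparison, the 48 lists and the named genes were chosen with earlier results of these data known. Of 1433 listed genes 725 were measured, and 7 lists had under 5 measured genes. Equal dog numbers in different groups are not stated to mark a pair. The number of arrays limits the precision, and the array gives no depth.

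The alternatives were no filter, a filter by mean, a stricter or no threshold, other variance models, only the APB arrays, a second normalization, centring, array weights, the number of the dog as a block, the gap as a covariate, leaving out young APB dogs 1 and 2, and leaving out each dog. The fits within narrow-gap and wide-gap dogs were added after the data were seen. The model was tested on simulated data. Coordinates were used only to count the protein-coding genes between LOC476006 and GSTP1. The study's lipid and quantitative PCR measurements were not used here.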

Additional observations from a re-analysis of the deposited data

How the results depend on the processing

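The 2 calls for age with APB were 2 or 3 with another filter or none, a robust variance, a second quantile normalization, centring, only the 6 APB arrays, an adjusted p under 0.05 or no fold minimum. They were 163 with array weights, 7 with an intensity trend, 1 with the gap as a covariate, 24 without young APB dogs 1 and 2, 10 within the narrow-gap and 156 within the wide-gap dogs, and 103 at an unadjusted p under 0.005 and over 2-fold. With single dogs left out they ran from 1 to 854, the latter without young APB dog 3. The interaction of age and diet had 0 calls, but 2 without young APB dogs 1 and 2, 23 within the wide-gap dogs, 16 at an unadjusted p under 0.005, and 0 to 178 with single dogs left out (178 without young APB dog 3 and 1 without senior PPB dog 1). The causes were not tested. The gap difference ran from -3.83 to -1.41 with single dogs left out and from -3.85 to -0.55 with single transcripts.

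A fit with the dog number as a replicate block gave 2 calls for age and 0 for the interaction. Deviations of same-numbered dogs of the 2 APB groups correlated at -0.21, 0.37 and 0.44, and those of differently numbered dogs at -0.58 to 0.45. These few values cannot decide whether the numbers mark pairs. The labels state no pairs, so the numbers were not treated as pairs.

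Signs of single genes turned as follows. Another probe set gave -0.56 for RPL6, 0.0459 for LGALS8, 0.0932 for GOLIM4, 0.78 for LIFR, 0.57 for NPC1, -0.44 for TERF2IP, 1.29 for CXADR, 0.58 for G6PC1, 1.37 for PGM1, 0.14 for APOM, 2.17 for CYP3A26, -0.21 for SOD2, -0.24 for GPX1, 2.02 for CAT, 0.0417 for ALB, -0.0059 for CTSK and 2.76 for C3, and dimmer probe sets gave 0.80 for LOC479911, 0.85 and 0.53 for PECAM1, -0.37 for SYPL1, -0.15 for LGALS2, -0.14 for LOC476006, 0.0185 for SPATS2, and 0.165 and 0.061 for TTR. Without young dogs 1 and 2 the values were -0.34 for GAPDH, -1.17 for FDPS, -1.58 for FDFT1, -0.59 for SQLE, 0.0755 for CAT, -0.0746 for C5, -1.02 for PLG and -0.24 for VTN. Within the narrow-gap dogs they were -0.12 for FDPS, -1.54 for FDFT1, -0.67 for SQLE and -0.0690 for VTN, and within the wide-gap dogs 0.69 for HMGCS1, 0.16 for CYP3A12, 0.0738 for CAT, 0.0544 for TTR, -0.0762 for CD163, 0.19 for CD68, 0.35 for GHR and 0.0427 for C3. The gap as a covariate gave -0.22 for FDFT1, 0.0923 for CAT and 0.0345 for SOD1, array weights 0.0379 for HMGCS1, 0.10 for CYP3A12 and 0.0155 for GHR, and a second quantile normalization 0.048 for ALB. With single dogs left out the difference ran from -1.13 to 0.14 for HMGCS1, from -0.0054 to 2.13 for FDFT1, from -0.22 to 1.22 for SQLE, from -0.33 to 0.25 for CYP3A12, from -0.50 to 0.0839 for CYP1A2, from -0.15 to 0.0813 for CAT, from -0.12 to 0.0407 for SOD1, from -0.57 to 1.63 for MX1, from -0.50 to 1.84 for ISG15, from -0.35 to 0.25 for CD68, from -0.47 to 0.18 for GHR and from -0.0605 to 0.0507 for C3.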
